A study of Mus musculus with 4 samples.

Results

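A group of 30 genes of sterol and fatty acid synthesis and its control were followed in cultured mouse cells, and 30 of 30 were measured among 19938 named genes. They were listed by function, but with earlier results of these data known, so their shares beside all named genes are descriptions only. The list comprised 17 enzymes of the sterol arm and 7 of the fatty acid arm. It also held 5 regulators built around the sterol regulatory element binding proteins (SREBPs) and the sterol transfer protein gene Stard4. Gene expression had been profiled on an Affymetrix whole-transcript array, with 1 array for each of 4 groups of C57BL/6 cells. The groups were mesenchymal stem cells (MSC) flushed from the marrow of femurs and tibiae and selected by adherence to plastic, grown with basic fibroblast growth factor (bFGF) at 1 ng/ml, the same kind of cells grown without bFGF, osteoblasts released by enzyme digestion from the calvariae of newborn mice, and embryonic stem (ES) cells. The labels mark osteoblasts and ES cells as controls, and the series asked what bFGF does to MSC of the marrow. Osteoblasts of the last digestions had been pooled before plating, and the age of the marrow donors is not given in the sources used here. With 1 array per group there was no replicate check and no test, so each difference describes these arrays only. Both MSC and osteoblasts are mixed primary cultures, in which fewer cells of a type and less RNA per cell cannot be told apart.

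Cholesterol and fatty acids are both built from cytosolic acetyl-CoA. In the sterol arm, acetyl-CoA is condensed and reduced to mevalonate, phosphorylated and decarboxylated to isoprenoid units, joined into squalene, folded into lanosterol and then trimmed to cholesterol in the endoplasmic reticulum. In the fatty acid arm, carboxylation to malonyl-CoA feeds fatty acid synthase, after which elongases and desaturases shape the chain. When membrane sterol is low, the escort protein Scap carries SREBPs from the endoplasmic reticulum to the Golgi for cleavage, and the freed fragments switch on genes of both arms, with SREBP2 (Srebf2) acting mainly on sterol genes and SREBP1 (Srebf1) mainly on fatty acid genes. Insig proteins hold Scap back when sterol is plentiful. Dividing cells need both products for new membrane.

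SREBPs bind sterol response elements beside sites for the general factors NF-Y and Sp1, so windows from 250 bases before to 50 bases after the annotated starts were read from RefSeq (GRCm38.p6). They were found for 24 of the 30 members. Below are the windows of Hmgcs1, the 1 member that held the searched sterol response element, and of the member with a window that differed most between the MSC arrays in the sterol arm (Idi1), the fatty acid arm (Fasn) and the regulators (Insig1). These last were picked after their values were seen. Hmgcs1 lies at chr13:119690101-119690400 on the plus strand, Idi1 at chr13:8885356-8885655 on the plus strand, Fasn at chr11:120824498-120824797 on the minus strand and Insig1 at chr5:28071162-28071461 on the plus strand. Capitals mark the letters TCACNCCAC (sterol response element, in Hmgcs1 only) and CCAAT (NF-Y), read on both strands, so that ATTGG is a CCAAT on the other strand.
Hmgcs1: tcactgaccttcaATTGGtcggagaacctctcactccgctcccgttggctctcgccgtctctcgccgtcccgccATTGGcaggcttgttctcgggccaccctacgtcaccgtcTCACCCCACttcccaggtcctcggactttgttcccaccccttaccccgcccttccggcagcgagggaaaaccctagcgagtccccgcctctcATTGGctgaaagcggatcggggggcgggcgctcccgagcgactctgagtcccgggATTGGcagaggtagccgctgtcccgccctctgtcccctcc
Idi1: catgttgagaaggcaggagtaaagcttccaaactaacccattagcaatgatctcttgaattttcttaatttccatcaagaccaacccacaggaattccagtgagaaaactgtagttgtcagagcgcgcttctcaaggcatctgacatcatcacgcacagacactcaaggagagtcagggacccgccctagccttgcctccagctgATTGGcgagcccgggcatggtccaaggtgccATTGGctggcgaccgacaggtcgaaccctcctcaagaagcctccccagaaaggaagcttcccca
Fasn: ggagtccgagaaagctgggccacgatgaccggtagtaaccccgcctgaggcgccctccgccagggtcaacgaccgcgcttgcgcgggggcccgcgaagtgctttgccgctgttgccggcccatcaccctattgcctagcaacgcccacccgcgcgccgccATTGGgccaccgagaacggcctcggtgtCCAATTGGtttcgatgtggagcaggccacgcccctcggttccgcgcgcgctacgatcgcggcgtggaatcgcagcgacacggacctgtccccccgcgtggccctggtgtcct
Insig1: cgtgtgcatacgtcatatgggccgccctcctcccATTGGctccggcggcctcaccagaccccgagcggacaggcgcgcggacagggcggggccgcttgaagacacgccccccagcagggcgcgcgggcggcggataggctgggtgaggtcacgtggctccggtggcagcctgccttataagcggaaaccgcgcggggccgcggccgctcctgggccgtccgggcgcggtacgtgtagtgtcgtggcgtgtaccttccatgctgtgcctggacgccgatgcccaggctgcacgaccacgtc

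CCAAT stood in at least 1 window of 21 of 24 members (87.5%), against 41.7% of the 15614 named genes with a window. In the sterol arm 14 of 14 genes with a window held it, from Mvk with 5 matches to Lss, Cyp51, Tm7sf2, Pmvk and Sc5d with 1 each. Acaca, Elovl6 and Scap held none. Of 44 matches in the members' 32 windows, 38 began within 200 bases before the start, a stretch of 200 of the 300 bases in a window. Positions were not counted over all named genes. In Fasn a pair of them overlapped at -62 and -59. The Sp1 letters GGGCGG stood in 79.2% of the members and 52.9% of named genes, the E-box CACGTG in 20.8% and 9.50%, and TCACNCCAC in 4.17% (Hmgcs1, at -137) and 1.40%. CACGTG was held by Dhcr7, Hsd17b7, Insig1, Sc5d and Scap. A match to these letters is a description of the window and not a shown binding site.

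**Figure D1:**
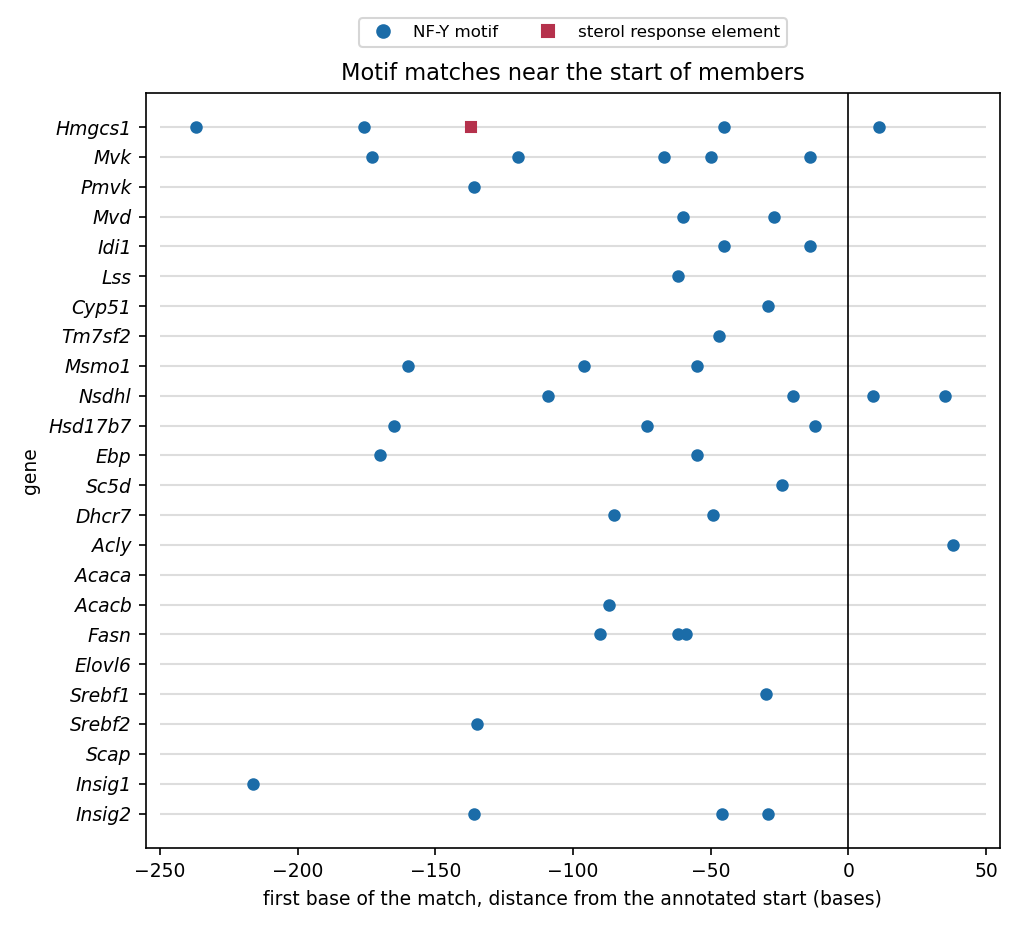
Matches to CCAAT (NF-Y, circles) and TCACNCCAC (sterol response element, square) on either strand in the 24 members with a promoter window, by distance in bases of the first matched base from the annotated start. Each grey line is 1 window of 300 bases, and for genes with several starts the window with most NF-Y matches is drawn. All 14 sterol arm genes with a window have at least 1 circle.

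Levels are log2 values as deposited, and each difference is the first-named group's level minus the second's. The members were mostly well measured, with 29 of 30 at a mean level above the median of named genes, 6.41. The exception was Acacb, at 5.45 in MSC with bFGF, 5.89 in MSC without bFGF, 5.99 in osteoblasts and 6.01 in ES cells. In MSC without bFGF 26 of 30 lay above that array's median, 6.28. Idi1 (6.25), Stard4 (5.90), Acacb and Dhcr7 (5.80) lay below it. As a measure of technical noise, differences from probe sets of the same gene (557 genes with a mean level above 6.41) had an SD of 0.18 between the MSC arrays and of 0.23 to 0.27 in the other comparisons, which does not cover variation between cultures. The labels were checked against marker genes. All 8 pluripotency markers were highest in ES cells, among them Pou5f1, at 10.63 there and at most 5.06 in the other arrays. Of these 8, 6 lay above the array median in ES cells, whereas Zfp42 and Esrrb lay below it. In MSC with bFGF 1 lay above the array median, and 0 did in MSC without bFGF and in osteoblasts. Col1a1 was highest in osteoblasts (12.60), but it was also high in ES cells (10.92), MSC with bFGF (9.06) and MSC without bFGF (9.23). The other measured osteoblast genes, Sp7, Alpl, Ibsp and Dmp1, lay between 4.53 and 6.03 in osteoblasts, below that array's median of 6.46. Of 9 stromal markers, 6 lay above the array median in MSC with bFGF, 4 in MSC without bFGF, 8 in osteoblasts and 7 in ES cells, and 8 were highest in osteoblasts, so these markers did not set the MSC arrays apart. Macrophage markers were strong in several arrays: 12 of 12 lay above the array median in MSC with bFGF, 9 in MSC without bFGF, 12 in osteoblasts and 11 in ES cells, and their summed level (log2 of the sum of linear levels) was 13.78, 10.86, 15.17 and 12.21 in that order. Of 8 adipocyte markers, 1 lay above the array median in MSC with bFGF, 0 in MSC without bFGF, 3 in osteoblasts and 1 in ES cells. Adipoq (3.42 to 3.99) and Fabp4 (4.28 to 5.36) were low in all 4 arrays, whereas Lpl reached 8.75 in osteoblasts and Cd36 reached 8.29 in osteoblasts and 8.48 in ES cells.

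The commonest pattern was a high level in ES cells and a low one in MSC without bFGF. ES cells had the highest level of the 4 arrays for 25 of 30 members, which is the case for 25.1% of all named genes and 25.3% of the 9969 with a mean level above the median. MSC without bFGF had the lowest level for 14 of 30, against 19.3% and 19.7%. Osteoblasts had the lowest level for 11 of 30, against 24.6% of all named genes and 32.4% of those above the median level. The 5 members not highest in ES cells were Msmo1, Acaca, Srebf1, Scap and Insig2. Acaca is so only on the probe set kept: on its other probe set it was highest in ES cells, at 7.38 against 7.31 in MSC with bFGF. From the lowest to the highest array a member spanned a median of 1.23, with Scap (0.30), Sc5d (0.35) and Srebf1 (0.46) the flattest and Idi1 (3.05), Stard4 (2.80) and Elovl6 (2.33) the most variable. Over all named genes the median span was 0.70, and 0.80 for those above the median level.

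**Figure D2:**
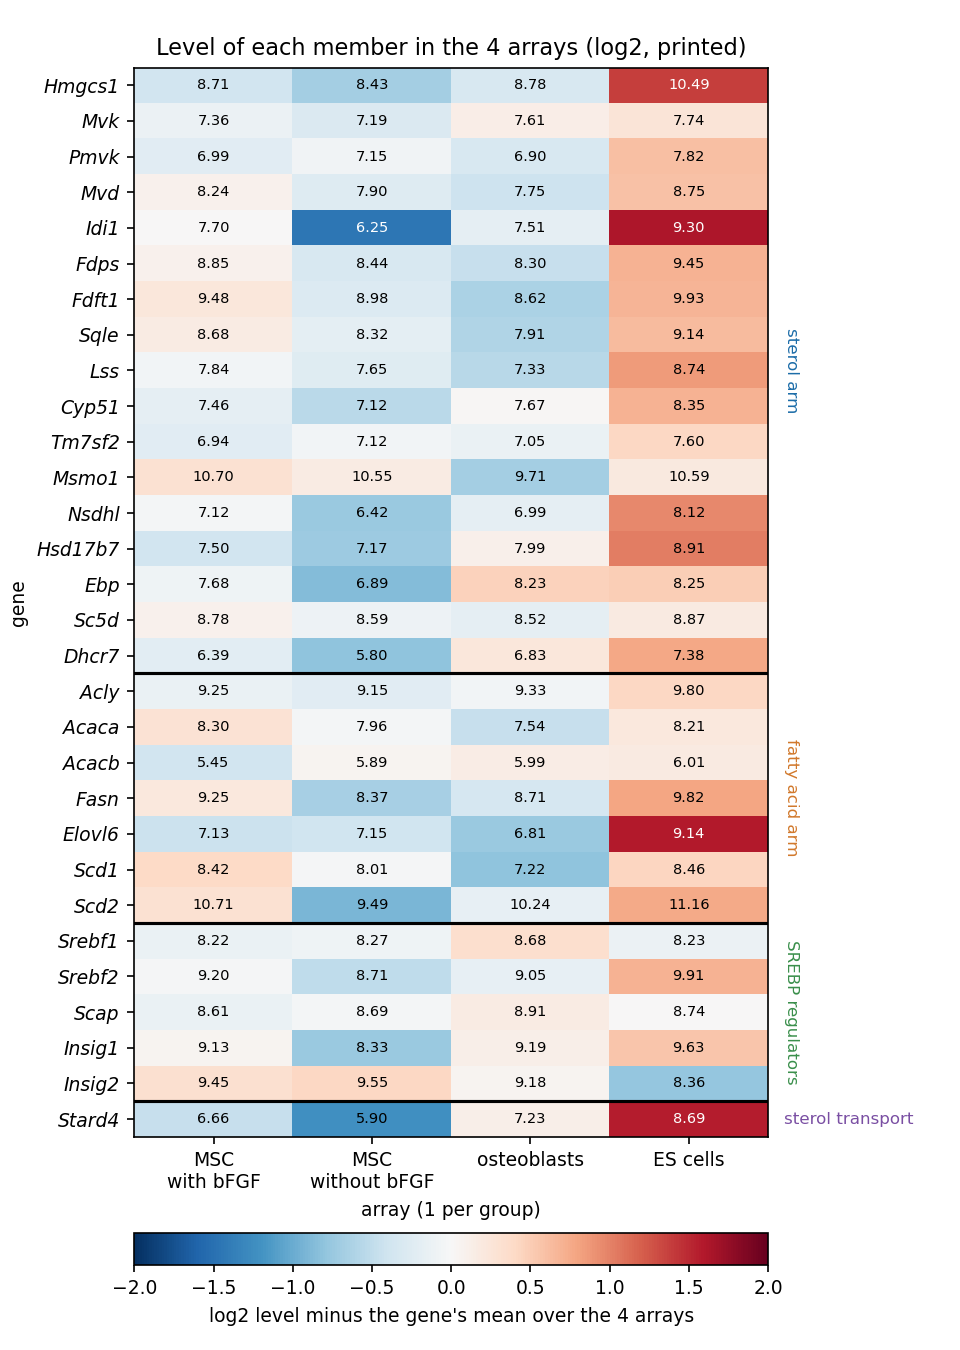
Deposited log2 level (printed) of each of the 30 members in MSC with bFGF, MSC without bFGF, osteoblasts and ES cells, 1 array each. Colour gives the level minus the gene's mean over the 4 arrays, so it is comparable along a row and not between genes. ES cells are reddest for 25 of 30 genes and MSC without bFGF bluest for 14.

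Among the enzymes that make mevalonate and isoprenoid units, Idi1 and Hmgcs1 varied most. Idi1, the isomerase that balances the isoprenoid building blocks, stood at 7.70 in MSC with bFGF, 6.25 in MSC without bFGF, 7.51 in osteoblasts and 9.30 in ES cells. Hmgcs1, which makes HMG-CoA, stood at 8.71, 8.43 and 8.78 in MSC with bFGF, MSC without bFGF and osteoblasts, against 10.49 in ES cells. The 3 somatic arrays thus lay close together for Hmgcs1 and apart for Idi1, whose level in MSC without bFGF was below that array's median of 6.28. The next steps varied less. Mevalonate kinase, Mvk, had 7.36, 7.19, 7.61 and 7.74 in the same order, phosphomevalonate kinase, Pmvk, 6.99, 7.15, 6.90 and 7.82, and the decarboxylase Mvd 8.24, 7.90, 7.75 and 8.75. Fdps, which joins the units into farnesyl diphosphate, had 8.85, 8.44, 8.30 and 9.45. For Pmvk, Mvd and Fdps the lowest array was that of osteoblasts.

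From squalene to lanosterol the order of the arrays was the same for each enzyme: osteoblasts lowest, then MSC without bFGF, MSC with bFGF and ES cells. Squalene synthase, Fdft1, stood at 9.48 in MSC with bFGF, 8.98 in MSC without bFGF, 8.62 in osteoblasts and 9.93 in ES cells. Squalene epoxidase, Sqle, a rate-controlling step of the pathway, had 8.68, 8.32, 7.91 and 9.14 in that order, and lanosterol synthase, Lss, had 7.84, 7.65, 7.33 and 8.74. The MSC arrays were 0.49 apart for Fdft1, 0.36 for Sqle and 0.19 for Lss, the last close to the SD of 0.18 between probe sets of a gene.

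The enzymes that turn lanosterol into cholesterol split into those lowest in MSC without bFGF and those lowest elsewhere. Ebp, the sterol isomerase, stood at 7.68 in MSC with bFGF, 6.89 in MSC without bFGF, 8.23 in osteoblasts and 8.25 in ES cells, and Dhcr7, the last reductase of the pathway, at 6.39, 5.80, 6.83 and 7.38. Nsdhl, which takes part in removing methyl groups from the ring, had 7.12, 6.42, 6.99 and 8.12, and its partner Hsd17b7 had 7.50, 7.17, 7.99 and 8.91. Cyp51, the lanosterol demethylase, had 7.46, 7.12, 7.67 and 8.35. These 5 were lowest in MSC without bFGF. The methyl oxidase Msmo1 differed from them, with 10.70 in MSC with bFGF, 10.55 in MSC without bFGF, 9.71 in osteoblasts and 10.59 in ES cells, so that the MSC arrays lay within 0.11 of ES cells and osteoblasts stood below. The reductase Tm7sf2 had 6.94, 7.12, 7.05 and 7.60, with MSC with bFGF lowest, and the desaturase Sc5d had 8.78, 8.59, 8.52 and 8.87, nearly level across the arrays.

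In the fatty acid arm the desaturases and the elongase gave different patterns. Scd2, a stearoyl-CoA desaturase expressed in many tissues, stood at 10.71 in MSC with bFGF, 9.49 in MSC without bFGF, 10.24 in osteoblasts and 11.16 in ES cells. Its paralogue Scd1, encoded on the same chromosome 19 and best known from liver and fat, stood at 8.42, 8.01, 7.22 and 8.46 in that order. Scd2 was thus lowest in MSC without bFGF and Scd1 in osteoblasts, 2.31-fold below MSC with bFGF. Elovl6, the elongase that makes stearate, was high in ES cells alone, with 7.13, 7.15 and 6.81 in MSC with bFGF, MSC without bFGF and osteoblasts, against 9.14 in ES cells. Fatty acid synthase, Fasn, had 9.25, 8.37, 8.71 and 9.82 in the 4 arrays and followed the order of Scd2. ATP citrate lyase, Acly, the source of cytosolic acetyl-CoA, had 9.25, 9.15, 9.33 and 9.80. Acaca, the cytosolic acetyl-CoA carboxylase, had 8.30, 7.96, 7.54 and 8.21, with MSC with bFGF only 0.09 above ES cells. That sign turned when a loess curve was removed, and on the gene's other probe set. The other probe set was also lowest in MSC without bFGF and not in osteoblasts. The mitochondrial form Acacb was below the array median in all 4 arrays.

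Of the regulators, Srebf2 and Insig1 shared the commonest pattern and Srebf1, Scap and Insig2 did not. Srebf2 stood at 9.20 in MSC with bFGF, 8.71 in MSC without bFGF, 9.05 in osteoblasts and 9.91 in ES cells. Insig1, itself a target of SREBPs, stood at 9.13, 8.33, 9.19 and 9.63 in that order. Both had their lowest level in MSC without bFGF and their highest in ES cells. Srebf1 was at 8.22, 8.27, 8.68 and 8.23 and Scap at 8.61, 8.69, 8.91 and 8.74, so both were highest in osteoblasts, with spans of 0.46 and 0.30. Insig2 ran the other way, with 9.45, 9.55 and 9.18 in MSC with bFGF, MSC without bFGF and osteoblasts, against 8.36 in ES cells, and was the 1 member lowest in ES cells. Stard4, which moves cholesterol between membranes, stood at 6.66, 5.90 and 7.23 in MSC with bFGF, MSC without bFGF and osteoblasts, against 8.69 in ES cells. Its level in MSC without bFGF was below the array median.

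Between the MSC arrays, members were mostly somewhat higher with bFGF, and few by much. Idi1 was 2.73-fold higher with bFGF (log2 difference 1.45) and Scd2 2.33-fold higher (1.22). These 2 of 30 members passed 2-fold, against 2.61% of all named genes and 3.51% of those above the median level. No member was 2-fold lower, as were 0.948% and 0.291% of those genes. At 1.5-fold, 8 of 30 were higher, against 5.98% of all named genes and 6.89% of those above the median level, and 0 were lower, against 7.37% and 2.51%. Besides Idi1 and Scd2 these were Fasn (0.88), Insig1 (0.80), Ebp (0.79), Stard4 (0.76), Nsdhl (0.70) and Dhcr7 (0.59, just past the threshold), and the next below it were Fdft1 and Srebf2, each at 0.49.

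The median difference was 0.34 over the sterol arm, where 15 of 17 genes lay above 0, and 0.33 over the fatty acid arm, where 5 of 7 did. Above 0 lay 42.9% of all named genes and 50.2% of those above the median level. The median over all named genes was -0.06 and over those above the median level 0.00. Pmvk (-0.15), Tm7sf2 (-0.18) and Elovl6 (-0.02, above 0 after centring on the median gene) were among 9 members whose difference was smaller than the SD between probe sets of a gene. Acacb (-0.44) was the 1 member lower by more than that SD. The SD comes from genes above the median level, however, and Acacb lies below it, so it does not measure the noise of Acacb. The 2 probe sets annotated to Idi1 gave 1.45 and 1.32, those of Fdft1 0.49 and 0.47, and those of Acaca 0.33 and 0.63.

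Other transcripts differed between the same arrays. All 12 macrophage markers were 2-fold or more higher with bFGF, with log2 differences of 2.02 to 3.58. So were 8 of 11 measured mitosis genes, a list with a median of 1.33. The shares were 2.61% of all named genes and 3.51% of those above the median level. Bub1 stood at 6.07 with bFGF against 4.06 without, and Top2a at 7.79 against 5.93. The summed level of the mitosis genes was 10.55 in MSC with bFGF, 9.37 in MSC without bFGF, 11.62 in osteoblasts and 12.88 in ES cells. The part of cell composition and of cell division in the members' differences was not tested.

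**Figure D3:**
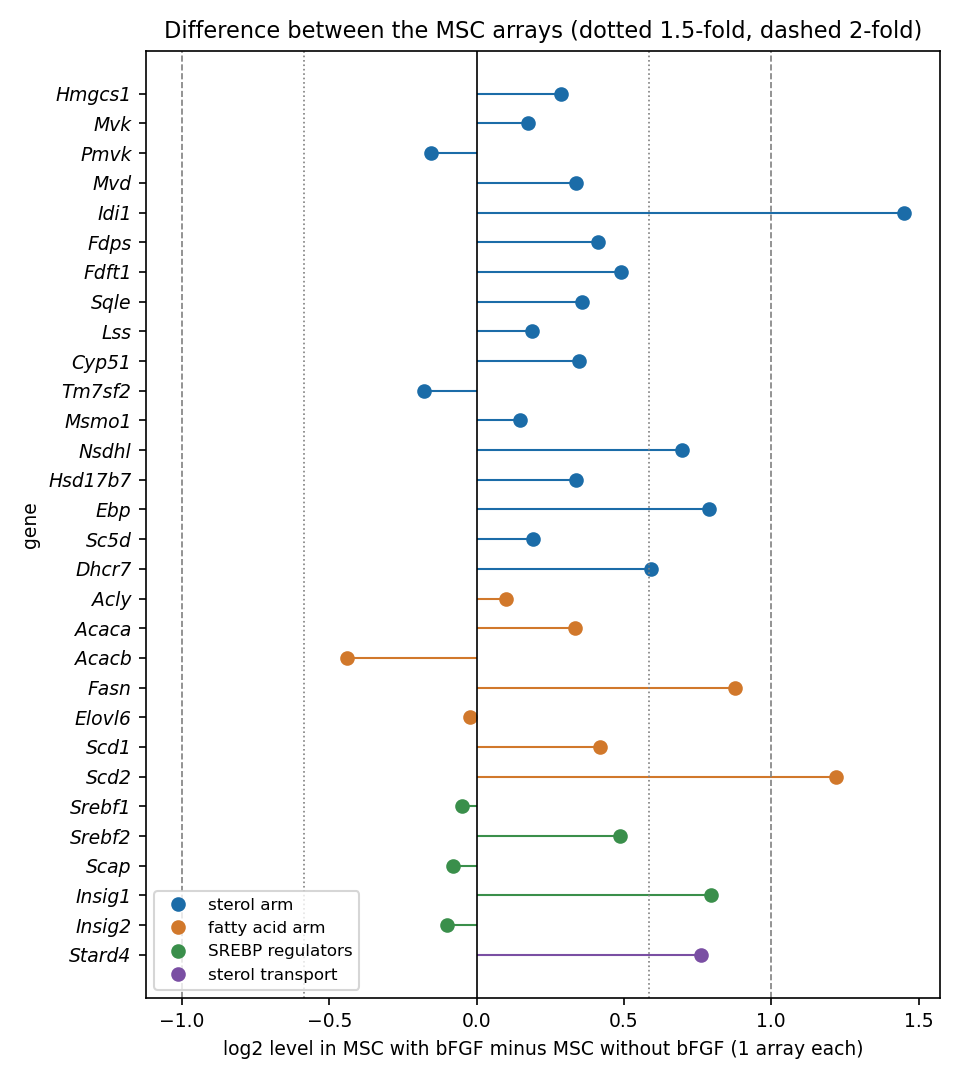
Log2 level in MSC with bFGF minus that in MSC without bFGF for each member, 1 array each, coloured by role. Dotted lines mark 1.5-fold and dashed lines 2-fold. Idi1 (1.45) and Scd2 (1.22) pass the upper dashed line, and Acacb (-0.44) is the lowest.

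Against osteoblasts, the MSC arrays showed no common shift of the pathway, and few members passed 2-fold. In MSC with bFGF minus osteoblasts, 1 of 30 members was 2-fold higher, Scd1 (2.31-fold), against 4.54% of all named genes and 7.02% of those above the median level. None was 2-fold lower, against 6.59% and 7.67%. Msmo1 (0.99), Fdft1 (0.86), Sqle (0.77) and Acaca (0.75, but 0.30 on its other probe set) were the next highest. Stard4 (-0.57), Ebp (-0.55) and Acacb (-0.53) were the lowest. Over the sterol arm the median difference was 0.13 (10 of 17 positive) and over the fatty acid arm 0.47 (5 of 7 positive). The all-gene median was -0.07, with 45.1% of all named genes positive and 56.7% of those above the median level.

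In MSC without bFGF minus osteoblasts, 0 of 30 members were 2-fold higher, against 5.21% and 7.81% of named genes, and 4 were 2-fold lower, against 8.55% and 11.2%. The 4 were Ebp (-1.34, 2.53-fold lower), Stard4 (-1.33), Idi1 (-1.26) and Dhcr7 (-1.03). Insig1 (-0.86), Hsd17b7 (-0.82) and Scd2 (-0.75) followed, while Msmo1 (0.84) and Scd1 (0.79) were again the highest. Once a loess curve was removed, Dhcr7 lay inside 2-fold and Insig1 past it. The sterol arm median was 0.07, and -0.11 once a loess curve was removed, and the fatty acid arm median was -0.09, and 0.09 without Acacb, so neither had a settled sign. Both comparisons share the osteoblast array. The macrophage markers had a median level of 10.23 in MSC with bFGF and 7.08 in MSC without bFGF, against 11.25 in osteoblasts. Mitosis genes differed from osteoblasts by medians of -1.01 in MSC with bFGF and -2.47 in MSC without bFGF. Their part was not tested.

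**Figure D4:**
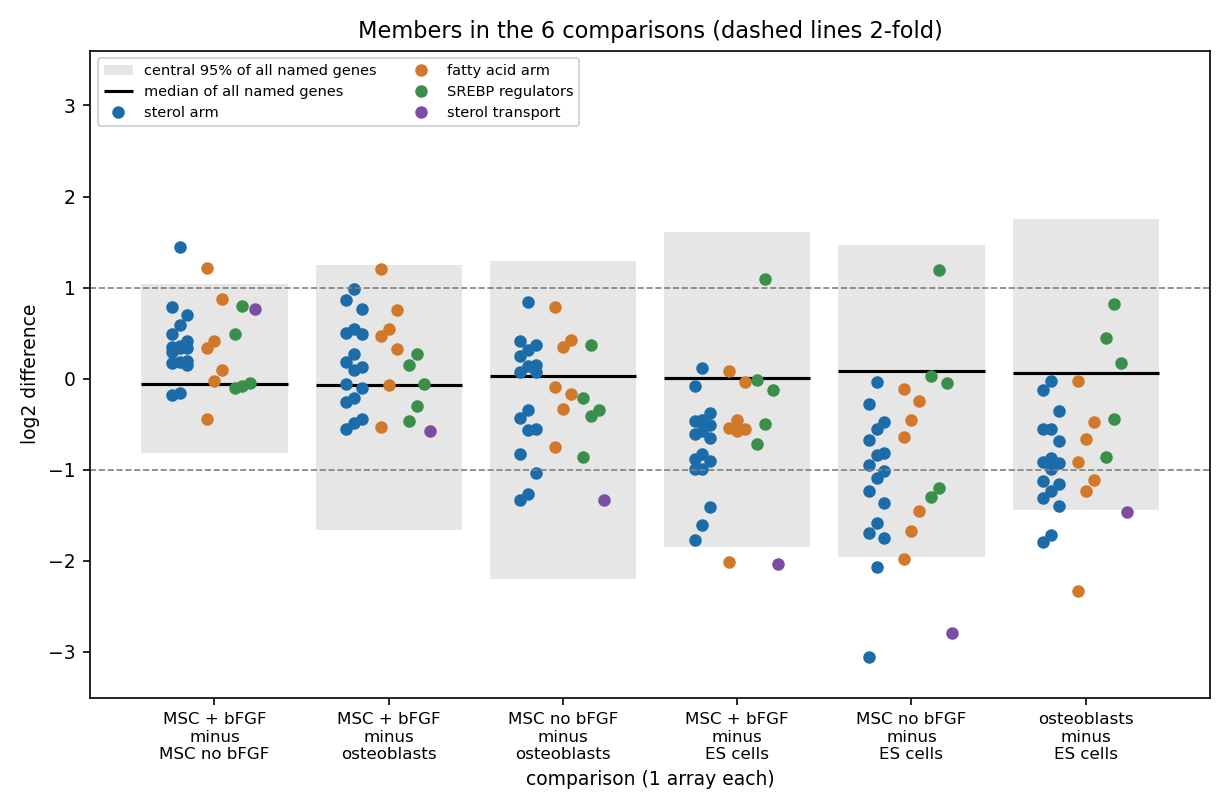
Log2 differences of the 30 members in the 6 comparisons, 1 array each, by role (points). Grey bars span the central 95% of all 19938 named genes, black lines their median, and dashed lines 2-fold. Against ES cells most points lie below the black line, with Idi1, Stard4, Elovl6 and Hmgcs1 lowest, and Insig2 highest.

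Against ES cells, most members were lower in each of the somatic cultures. In MSC with bFGF 27 of 30 were below 0, as were 9810 of 19938 named genes and 4074 of the 9969 above the median level. The 5 members 2-fold lower were Stard4 (-2.04, 4.10-fold), Elovl6 (-2.01, 4.02-fold), Hmgcs1 (-1.77), Idi1 (-1.60) and Hsd17b7 (-1.41). At 2-fold lower were 7.23% of all named genes and 7.29% of those above the median level. The 5 became 9 once a loess curve was removed. Nsdhl lay just inside the threshold, at 1.99-fold lower, as did Dhcr7. Insig2 was the 1 member 2-fold higher (1.09, 2.13-fold), against 6.91% and 10.8%, and lay inside 2-fold once a loess curve was removed or quantile normalization repeated. The sterol arm had a median of -0.65 and the fatty acid arm -0.54, where the all-gene median was 0.01.

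In MSC without bFGF 28 of 30 members were below 0, as were 8750 of 19938 named genes and 4295 of the 9969 above the median level. Of the 30 members, 15 were 2-fold lower, against 7.73% and 8.83% of named genes. Idi1 was 8.29-fold lower (-3.05), Stard4 6.95-fold (-2.80), Hmgcs1 4.18-fold (-2.06), Elovl6 3.96-fold (-1.98) and Hsd17b7 3.36-fold (-1.75). Nsdhl (-1.69), Scd2 (-1.67), Dhcr7 (-1.58), Fasn (-1.45), Ebp (-1.36), Insig1 (-1.30), Cyp51 (-1.23), Srebf2 (-1.20), Lss (-1.08) and Fdps (-1.01) made up the rest, so that enzymes of both arms and 2 regulators were among them. Insig2 was again the 1 member 2-fold higher (1.19), against 6.76% and 10.2%, though not once a loess curve was removed. Medians were -1.01 for the sterol arm and -0.64 for the fatty acid arm, the second -1.05 without Acacb, with 0.08 over all named genes.

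Osteoblasts were likewise lower than ES cells for 27 of 30 members, and for 8925 of 19938 named genes and 4762 of the 9969 above the median level. By 2-fold they were lower for 11 members, against 5.64% and 6.62% of named genes. Elovl6 was 5.03-fold lower (-2.33), Idi1 3.46-fold (-1.79) and Hmgcs1 3.28-fold (-1.71), followed by Stard4 (-1.46), Lss (-1.40), Fdft1 (-1.31), Scd1 (-1.24), Sqle (-1.23), Fdps (-1.15), Nsdhl (-1.13) and Fasn (-1.11). No member was 2-fold higher, against 7.74% and 11.1%, the highest being Insig2 (0.82), Srebf1 (0.45) and Scap (0.17). Ebp (-0.02) and Mvk (-0.13) were nearly equal in the 2 arrays. The sterol arm median was -0.93 and that of the fatty acid arm -0.92, where the all-gene median was 0.07.

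These 3 comparisons share the ES cell array, so their agreement is not independent. Macrophage markers differed from ES cells by a median of 2.48 in MSC with bFGF, -0.54 in MSC without bFGF and 3.38 in osteoblasts. Mitosis genes were lower than in ES cells in each comparison, by medians of -2.38, -3.75 and -1.37 in that order. The part of either group in the members' differences was not tested.

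Other lipid genes, chosen as lists of related pathways, had list medians above 0 against ES cells in most comparisons. Of 20 further genes of fatty acid and lipid synthesis, 18 were measured. In MSC with bFGF, 4 of the 18 were 2-fold higher than in ES cells and 2, Agpat2 (-1.27) and Pcyt2 (-1.32), 2-fold lower, against the 6.91% and 7.23% of all named genes given above. The list medians were 0.32, 0.21 and 0.28 in MSC with bFGF, MSC without bFGF and osteoblasts minus ES cells. The desaturase homologue Fads3 stood at 10.53, 10.44 and 9.45 in MSC with bFGF, MSC without bFGF and osteoblasts, against 8.38 in ES cells. Agpat2, an acyltransferase of phospholipid and triglyceride synthesis, stood at 7.24, 6.11 and 8.87, against 8.51 in ES cells. It was the 1 gene of 18 in this list 2-fold higher with than without bFGF (1.13), against 2.61% of all named genes. Of 13 measured fatty acid oxidation genes (14 listed), 10 had their lowest level in ES cells, against 31.0% of all named genes and 34.6% of those above the median level. Their medians against ES cells were 0.33, 0.60 and 0.43. Between the MSC arrays 0 of 13 passed 2-fold, where 2.61% of all named genes were higher and 0.948% lower. Decr1, an auxiliary enzyme of unsaturated fatty acid oxidation, had 8.79, 9.05 and 8.47, against 7.28 in ES cells. Of 16 other genes linked to SREBPs and the mevalonate pathway, only 8 were measured. The sterol-regulated Tmem97 among them was lower than in ES cells by 0.90, 1.08 and 1.06 in MSC with bFGF, MSC without bFGF and osteoblasts. The median of the 8 measured genes was 0.05, 0.25 and 0.23 in that order.

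Genes of sterol efflux and of the liver X receptor (LXR), which answers to oxidised sterols, differed strongly between cultures. Of 11 measured, 4 were 2-fold higher with than without bFGF, against 2.61% of all named genes and 3.51% of those above the median level. Ch25h, which makes 25-hydroxycholesterol, stood at 9.38 in MSC with bFGF against 6.16 in MSC without bFGF, the efflux pumps Abcg1 at 8.65 against 6.53 and Abca1 at 7.74 against 5.79, and the sterol hydroxylase Cyp27a1 at 6.67 against 5.33. Osteoblasts had the highest of the 4 levels for 8 of these 11 genes, against 29.6% of all named genes and 27.1% of those above the median level, among them the lipoprotein Apoe at 12.31. Apoe itself stood at 7.71 in MSC with bFGF and 7.85 in MSC without bFGF, so it did not follow the other genes between the MSC arrays. Several of these genes are also abundant in macrophages, of whose 12 markers 11 were highest in osteoblasts and 12 higher with than without bFGF, and the part of such cells was not tested.

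**Figure D5:**
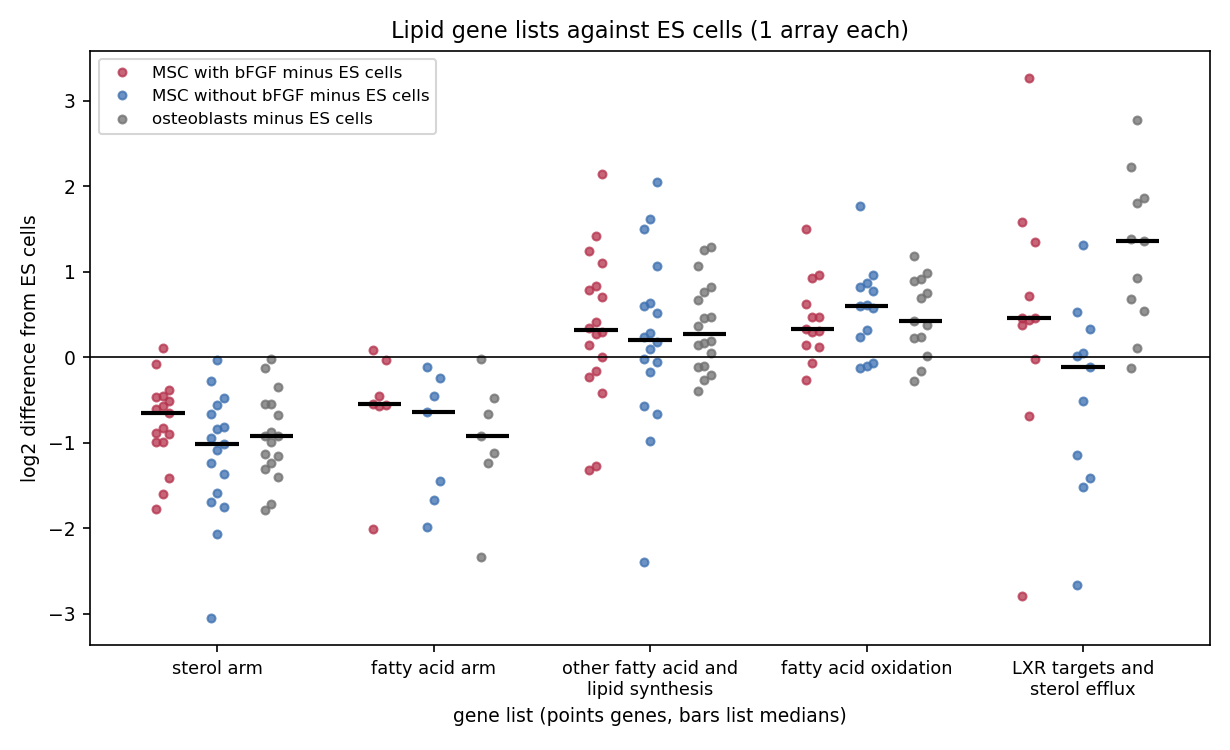
Log2 difference from ES cells of each gene (points) in 5 lipid gene lists, for MSC with bFGF, MSC without bFGF and osteoblasts, 1 array each, with list medians as black bars. Sterol arm medians are -0.65, -1.01 and -0.93 and fatty acid oxidation medians 0.33, 0.60 and 0.43.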

How the data were processed

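Total RNA of 4 cultures was hybridised to 1 Affymetrix array each. Per the submitters' processing notes, the authors made the deposited values with Affymetrix Expression Console and RMA, which corrects background, aligns the distributions of the arrays and summarises each probe set. The log2 scale was inferred from the deposited values, which ran from 1.40 to 14.28, and tool versions were not stated there. RMA hides a general change of RNA per cell. Precision is limited by having 1 array per group.

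A single gene symbol was found for 21789 of 35556 probe sets. Where several probe sets named 1 of the 19938 genes, the one highest on average was kept. Differences of log2 levels were counted as higher or lower at 2-fold over all measured members, beside the same count over all named genes and over the 9969 with a mean level above the median (6.41). No test between groups was possible. The counting was tested on simulated data with added shifts larger than 2-fold. Such data cannot show how smaller differences or variation between cultures behave. Members and lists were chosen with earlier results of these data known. All members could be named, and of the other lists up to 4 genes each way per comparison and markers of the labelled cell types. Promoter windows came from RefSeq (GRCm38.p6). Alternatives were the mean of probe sets, centring on the median gene, removing a loess curve (lowess, fraction 0.3), repeated quantile normalization, members above the median level only and a 1.5-fold threshold. Python 3.11.15, numpy 2.4.6, pandas 2.3.3 and statsmodels 0.14.6 were used.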

Additional observations from a re-analysis of the deposited data

How the results depend on the processing

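Medians of the sterol and fatty acid arms and counts of members past 2-fold were recomputed in the 6 comparisons. Of 60 recomputed medians, 59 moved by less than the SD between probe sets of a gene. Both arm medians of MSC without bFGF minus osteoblasts, close to 0, changed sign under 1 alternative each, to -0.11 for the sterol arm after a loess curve was removed and 0.09 for the fatty acid arm without Acacb. The exception was the fatty acid arm in MSC without bFGF minus ES cells, which was -1.05 in place of -0.64 without Acacb, the member below the median level. Of 62 recomputed counts, 56 stayed within 1.5 times. Part of this stability was fixed in advance. Leaving out Acacb could change no sterol arm median and no 2-fold count. Taking the mean of probe sets could move only Idi1, Fdft1 and Acaca, the members with several probe sets. Centring shifted all differences of a comparison alike, by 0.01 to 0.08 in size, which is below each SD. The SD is also that of single genes, and so a loose measure for the median of an arm. At 1.5-fold, 8 members in place of 2 were higher in MSC with bFGF than in MSC without bFGF. Centring made 2 members in place of 1 higher in MSC with bFGF than in osteoblasts, adding Msmo1. Against ES cells, removing a loess curve gave 9 in place of 5 members lower in MSC with bFGF, adding Cyp51, Dhcr7, Lss and Nsdhl, and 0 in place of 1 higher in MSC with bFGF and in MSC without bFGF, as Insig2 was then inside 2-fold. Repeated quantile normalization also gave 0 higher in MSC with bFGF. These settings turned the sign of at most 2 members in a comparison, all with small differences. The cause was not tested. No paired analysis was possible because each group had 1 array, and no replicate could be left out.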

Other observations

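Both Idi1 and Acaca had 2 probe sets annotated to the same gene, and in each case the probe set with the higher mean stands in the platform table among genes of another chromosome. For Idi1, on chromosome 13, these neighbours lie on chromosome 2, and for Acaca, on chromosome 11, on chromosome 12. The probe set of Idi1 listed among genes of chromosome 13 gave 7.09 in MSC with bFGF, 5.77 in MSC without bFGF, 7.02 in osteoblasts and 8.91 in ES cells, the same order of arrays as the other. For Acaca the probe set listed among genes of chromosome 11 gave 7.31, 6.68, 7.01 and 7.38, so that MSC without bFGF stood 0.33 below osteoblasts on it and 0.42 above them on the other. Whether either probe set reads a related sequence elsewhere in the genome was not tested.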
